A study of Setaria viridis with 15 samples.

Results

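The response described here is the change in shoot transcripts that seedlings of Setaria viridis, a small C4 grass, made in common beside each of 3 bacterial isolates. It was measured as the mean of the 3 isolate groups, each given the same weight, minus the mock control, together with a test of whether the isolate groups differed from one another. All 15 of the 15 libraries of the series entered: 4 controls, 3 for the isolate CTB P6B8, 4 for MTS P5D6 and 4 for AI2.2-A. Every plant was wild type (WT), and each group shared the same handling: seedlings aged 5 days were moved, 2 to a plate, onto half-strength MS medium around an inner dish of solid LB medium. In the isolate groups 20 µL of a bacterial suspension was spread on the inner dish, so that bacteria and plants grew on separate media in one sealed plate, and the mock control plates received no bacteria. Shoots were taken after 7 days at a 12 h photoperiod, 28 °C in the light and 25 °C in the dark. The series describes the exposure as one to bacterial volatile compounds, gases were not measured in these files, and the labels used here give no species for the isolates and no number of seedlings per library. The libraries are labelled as biological replicates, and p-values measure the spread between them.

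Bacteria on rich medium give off mixtures of small molecules, among them carbon dioxide, ammonia, alcohols, ketones and sulfur compounds, and several of these reach leaves through the air. A leaf reduces nitrate to nitrite with nitrate reductase and to ammonium with nitrite reductase before it makes amino acids, and genes of this path respond to nitrogen supply. In C4 grasses, phosphoenolpyruvate (PEP) carboxylase first fixes carbon in mesophyll cells and the Calvin cycle runs in bundle sheath cells. Microbes are perceived by receptor-like kinases at the cell surface and by NLR proteins (nucleotide-binding, leucine-rich repeat immune receptors) inside the cell, and WRKY transcription factors and jasmonate act downstream of such perception.

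Total counts per library were between 13852517 and 25123025, and each library correlated at a median of 0.984 to 0.99 (Pearson's r across genes, log2 CPM, with CPM the counts scaled to one common library size) with the others of its group. Leaf markers were genes of the ribulose bisphosphate carboxylase small subunit, PEP carboxylase, chlorophyll a-b binding proteins and oxygen-evolving enhancer proteins. They summed to 21003 to 27805 CPM in controls, against 15927 to 21177 beside CTB P6B8, 15404 to 18203 beside MTS P5D6 and 18392 to 23915 beside AI2.2-A. The labelled tissue was thus represented in every library. Casparian strip genes, markers of root endodermis, summed to at most 3.72 CPM in any library. Seed storage markers summed to 30.7 to 32.7 CPM in controls and 29.1 to 35.9 beside AI2.2-A, and every library of CTB P6B8 (34.1 to 38.3 CPM) and MTS P5D6 (40.8 to 45.2 CPM) was above all controls. Meristem markers summed to 788 to 923 CPM in controls, 775 to 815 beside CTB P6B8 and 834 to 871 beside MTS P5D6, and all AI2.2-A libraries (712 to 750.4 CPM) were below all controls. Of 16 meristem markers, 7 were called lower and 2 higher, and the isolates differed in 14 (87.5%). Median differences per gene were -0.29, -0.87 and -0.03 for CTB P6B8, MTS P5D6 and AI2.2-A. Sums, which weigh abundant members most, thus ordered the isolates otherwise than the medians did. The part of these markers in the results that follow was not tested, and no member of these lists was at 0 throughout. Chloroplast-encoded genes took between 0.0209% and 0.0652% of counts in 14 libraries and 0.184% in CTB P6B8 replicate 3.

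A large part of the measured transcriptome moved. Of 28032 genes, 20310 had enough counts to be tested, and the common shift was called for 10735 of them, 52.9%, at an adjusted p under 0.05 (edgeR's quasi-likelihood test, Benjamini-Hochberg adjustment over all tested genes). Of these, 5074 (25% of those tested) were higher and 5661 (27.9%) lower beside the isolates, and with total counts alone as the scaling the share of higher genes among those called went from 47.3% to 60%. The 3 isolate groups differed from one another for 9556 genes (47.1%), by a test that leaves the controls out. Among the 10735 called genes, 4368 differed between isolates in size while keeping one direction, and 864 differed in size with fitted directions that were not all the same.

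Genes were counted as uniform only where the shift was called, the 3 fitted isolate differences had one sign, the agreement test gave an unadjusted p of 0.05 or more, and the 95% interval of every difference between 2 isolates lay within plus or minus the size of the common shift. By this rule 2256 genes were uniform, 11.1% of those tested and 21% of those called: 1111 higher (5.47%) and 1145 lower (5.64%). With total counts alone as the scaling, 1472 were uniform and higher and 715 uniform and lower. A further 3247 called genes showed no difference between isolates that passed adjustment, yet missed at least 1 part of the rule, and are left undecided. All 3 isolate differences are taken against the same 4 controls, so an error in the control mean moves the 3 of them together and does not show in the agreement test. Every gene given below with a shift was called, and shifts are log2 differences with their standard error. Most genes named below were also chosen for having all 11 isolate libraries on one side of all 4 controls. A lack of overlap in those genes, and isolate differences close together relative to the shift in uniform genes, follow from these choices. Counts in the lists below stand beside the shares over all genes tested: 25% called higher, 27.9% called lower and 11.1% uniform. The bound fell between close neighbours: the purple acid phosphatase 28 gene (LOC117851392) was just inside it, with a shift of -0.2612 and a widest bound of 0.2611, and the NETWORKED 4B-like gene (LOC117858588) just outside it, with 0.5748 and 0.5749.

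The uniform increases were larger than the uniform decreases. The median common shift was 1.10 (log2) for the 1111 higher genes and -0.54 for the 1145 lower genes, beside -0.02 for all genes tested. At least a 2-fold shift was reached by 609 of the higher genes and 148 of the lower ones, and at least 4-fold by 229 and 17. In a library's total, the higher genes took 2.31 to 2.5% of counts in controls and 3.78 to 4.73% in isolate libraries, and the lower genes 14.9 to 15.8% and 9.9 to 11.2%. These shares describe the genes the rule picked and carry no test. Over all genes tested, 9.3% had all 11 isolate libraries above all 4 controls and 11.6% had all 11 below. Among all called genes, 1582 of 5074 higher and 469 of 5661 lower ones reached 2-fold. The larger size of increases was thus not particular to uniform genes. The rule also sets its bound against the size of the shift, so larger shifts meet it more easily.

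**Figure D1:**
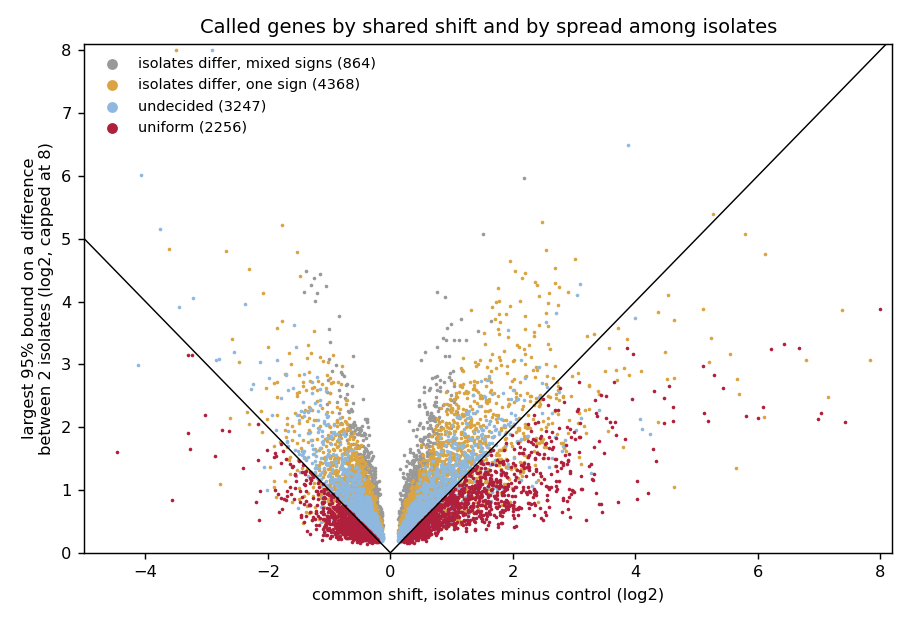
Each point is 1 of the 10735 called genes; the horizontal axis is its common shift (log2) and the vertical axis the largest 95% bound on a difference between 2 isolates (log2, capped at 8), with the lines marking equality. The 2256 uniform genes lie below the lines and reach farther to the right than to the left.

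Among uniform genes with an informative description, a mean log2 CPM of at least 1 and no overlap with controls, the largest decreases named here were those of nitrate reductase, described below, and of genes of several other functions. Carotenoid cleavage dioxygenase 8 homolog A (LOC117866430), an enzyme of strigolactone hormone synthesis, had 12.8, 13.7, 15.1 and 14 CPM in controls and 0.877 to 1.73 CPM (median 1.09) beside isolates, and its 3 isolate differences of -3.77, -3.52 and -3.41 lay close together around the shift of -3.57 ± 0.13. The sugar exporter SWEET14-like (LOC117866587, -2.86 ± 0.24), glycine-rich protein A3-like (LOC117847393, -2.41 ± 0.23), the copper protein mavicyanin-like (LOC117842139, -2.20 ± 0.16) and cinnamoyl-CoA reductase 2-like (LOC117836105, -2.13 ± 0.15), an enzyme of lignin synthesis, followed. The PELPK1-like gene (LOC117836899) shifted by -3.31 ± 0.38, and by -2.67 without control replicate 1.

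The largest increases started from few counts. The ervatamin-B-like protease gene (LOC117833743) had 6 counts over the 4 controls and 0.877 to 119 CPM beside isolates, and its fitted shift of 7.99 was 8.62 without control replicate 3 and 7.27 without CTB P6B8 replicate 2. With limma-voom this gene was not called (adjusted p 0.0604). A 28 kDa heat- and acid-stable phosphoprotein-like gene (LOC117850329) had 10 control counts and 2.97 to 60 CPM beside isolates, and a monooxygenase 2-like gene (LOC117837793) 12 control counts and 1.21 to 14.4 CPM. Their fitted shifts, 7.04 and 4.47, were 6.39 and 3.78 without CTB P6B8 replicate 1. Fitted shifts of genes with so few control counts depend on the prior count of the fit. A proline-tRNA ligase-like gene (LOC117860973) had 3 counts over the 4 controls and 1496 over the isolate libraries, a ratio of 146 with a 95% counting interval of 49.8 to 707, which covers counting error only. Its isolate libraries ran from 0.576 to 17.1 CPM, and its fitted shift of 6.99, which depends on the prior count, was 6.14 without CTB P6B8 replicate 1. An eIF6-2-like gene, LOC117857253, of a ribosome assembly factor family, rose from 0.675, 1.74, 1.45 and 0.672 CPM to 8.59 to 88 CPM. Genes named for their high counts rose by smaller amounts, among them the copper chaperone CCH-like gene (LOC117838900, 0.95 ± 0.09), peroxidase 1-like (LOC117858930, 1.43 ± 0.21) and the translation factor eIF-5A (LOC117844876, 0.35 ± 0.06), and the S-adenosylmethionine decarboxylase gene (LOC117863536) of polyamine synthesis, at 13129.5, 14128, 14330.5 and 13789.7 CPM in controls, fell by 0.45 ± 0.09.

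The nitrate-reducing step of nitrogen assimilation fell beside every isolate. The families counted here and below, such as this one, were chosen after their values were seen. All 3 genes tested that encode nitrate or nitrite reductase were uniform and lower. A nitrate reductase [NADH] gene (LOC117860413) had 909.8, 738, 924 and 841 CPM in the 4 controls, and its 11 isolate libraries ran from 24.1 to 100.3 CPM (median 34.1). Every isolate library was below every control, and the common shift was -4.46 ± 0.25 (log2 ± SE, adjusted p 3.89e-09), a 22-fold lower level. Ferredoxin-nitrite reductase (LOC117839299), the next enzyme, went from 95.8, 80.7, 89.2 and 79.3 CPM in controls to 15.2 to 28.2 CPM, with fitted differences of -2.21, -2.20 and -2.04 for CTB P6B8, MTS P5D6 and AI2.2-A. The second nitrate reductase, nitrate reductase [NAD(P)H] (LOC117839581), shifted by -1.90 ± 0.39 from control values of 7.29, 2.66, 3.13 and 2.59 CPM. Its highest isolate library, at 2.59 CPM, reached the level of the lowest control.

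Ammonium uptake genes moved the other way. Of 5 ammonium transporter genes tested, 4 were called higher and none lower. Ammonium transporter 3 member 2 (LOC117835930) had 0.945, 2.34, 1.45 and 1.5 CPM in controls and 3.86 to 7.01 CPM (median 5.36) beside isolates, with no overlap, and a shift of 1.82 ± 0.22 (adjusted p 5.01e-06). Member 3 of subfamily 2 (LOC117857106), uniform as well, shifted by 2.27 ± 0.36 from control values of 0.27, 0.272, 0.305 and 0.103 CPM. Member 1 of that subfamily (LOC117846954) shifted by 1.61 ± 0.14 and is undecided on agreement. Glutamate synthase 1 [NADH] (LOC117857834), which helps to turn ammonium into glutamate, was slightly lower at -0.32 ± 0.10, with overlapping groups, and the other genes of glutamine and glutamate synthesis were not uniform. Across the 24 tested genes of nitrogen uptake and assimilation, 11 were called higher and 10 lower, with 2 and 4 uniform.

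Many genes that carry nitrogen onward into amino acids rose. In the amino acid list, 31 of 70 tested genes were called higher and 8 lower, 13 of the former and 1 of the latter uniform. All 3 genes for the last 2 steps of arginine synthesis were uniform and higher. Argininosuccinate synthase (LOC117849928) stood at 86.7, 88.3, 87.5 and 82.2 CPM in controls and 169 to 234 CPM beside isolates, and its isolate differences of 1.19, 1.17 and 1.33 lay close together. The 2 argininosuccinate lyase genes (LOC117849499 and LOC117840023) shifted by 1.15 ± 0.14 and 0.56 ± 0.07. In the anthranilate and tryptophan branch, which also feeds indole defence compounds, 11 of 18 genes were higher and 1 lower. Its uniform members included anthranilate synthase alpha subunit 2 (LOC117837918, 1.01 ± 0.13), anthranilate synthase beta subunit 1 (LOC117862519, 0.72 ± 0.12), anthranilate phosphoribosyltransferase (LOC117839081, 0.64 ± 0.08), phosphoribosylanthranilate isomerase 1 (LOC117861349, 1.03 ± 0.10) and 2 indole-3-glycerol phosphate synthase genes (LOC117861030, 0.75 ± 0.08, and LOC117842557, 2.36 ± 0.34). Arogenate dehydratase 6 (LOC117865254), on the way to phenylalanine, rose by 1.63 ± 0.22.

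**Figure D2:**
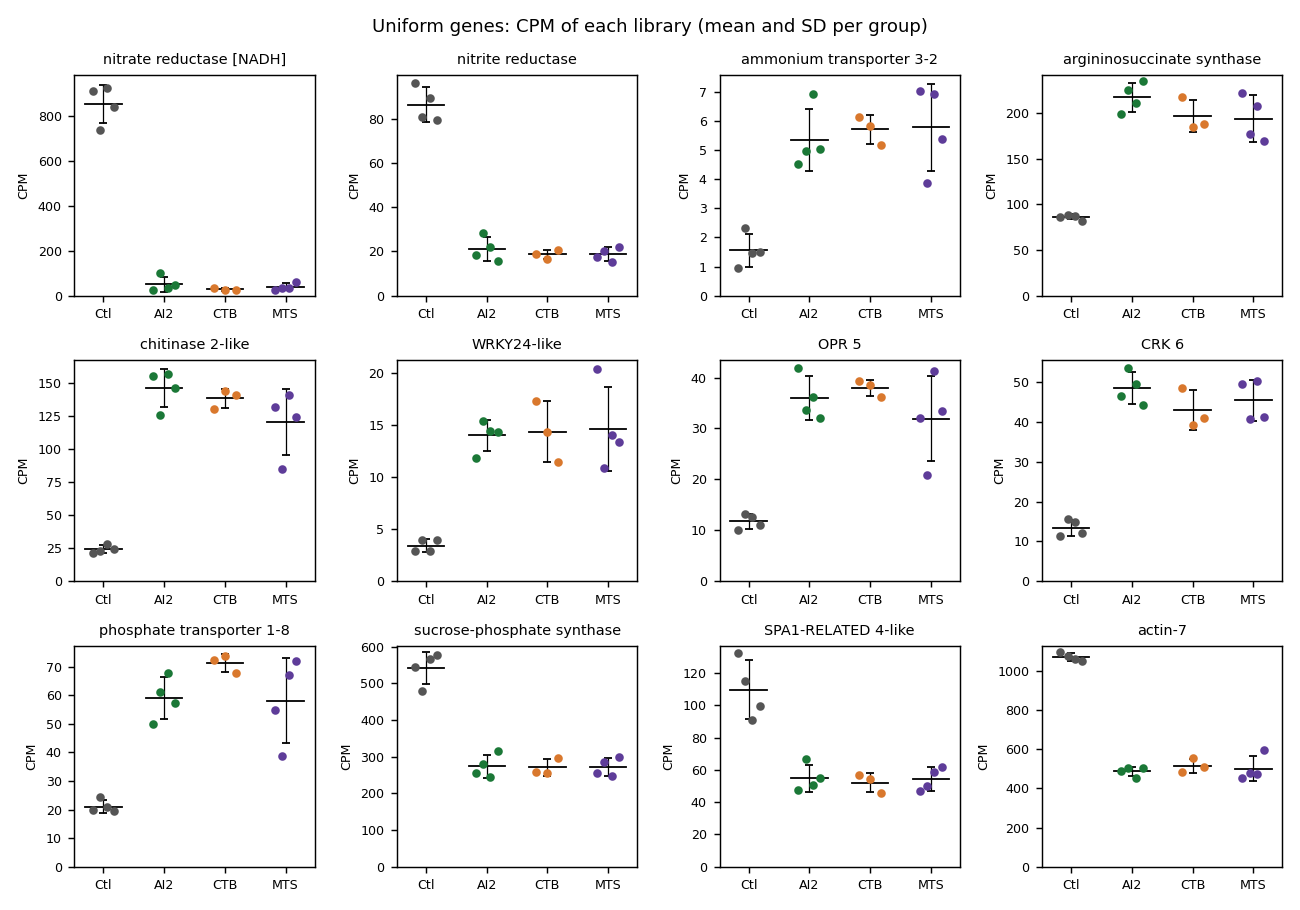
CPM of each library (points), with the group mean (line) and SD (bar), for 12 uniform genes in the controls (Ctl, 4 libraries), CTB P6B8 (CTB, 3), MTS P5D6 (MTS, 4) and AI2.2-A (AI2, 4); each vertical axis starts at 0. In each panel all 11 isolate libraries lie on one side of the 4 controls, which was a condition for naming these genes. For the nitrate reductase [NADH] gene the isolate libraries end at 100.3 CPM and the lowest control is at 738 CPM.

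Most photosystem genes were lower. In the photosystem and light-harvesting list, 36 of 47 genes were lower and 1 higher, with a median shift of -0.44, and 6 were uniform, among them PHOTOSYSTEM I ASSEMBLY 2 (LOC117848953, -0.82 ± 0.08), a leaf ferredoxin-NADP reductase (LOC117849888, -0.73 ± 0.08) and the photosystem II repair protein PSB27-H1 (LOC117838489, -0.60 ± 0.06). The isolates differed in 24 of these genes (51.1%, beside 47.1% of all genes tested), and the uniform share was 12.8%, near the 11.1% of all genes tested. In the chlorophyll list, 18 of 33 were lower and 4 higher, and uniform members included chlorophyllide a oxygenase (LOC117857915), which makes chlorophyll b, at -0.56 ± 0.07. The leaf markers given above were themselves lower in sum beside isolates. Their ranges overlapped the controls for CTB P6B8 and AI2.2-A and not for MTS P5D6. These markers include photosystem and light-harvesting genes of the kinds counted here, so they give no separate measure of leaf content. Their part in these results was not tested. In whole shoots, fewer cells of a type and less RNA per cell cannot be told apart.

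Genes of the C4 carbon shuttle were among the uniform decreases. Pyruvate, phosphate dikinase 2 (LOC117850669), which regenerates the acceptor of carbon fixation, had 22992, 22006, 23883 and 24339 CPM in controls and 12549 to 15618 CPM beside isolates, a shift of -0.73 ± 0.08 (adjusted p 2.34e-06). PEP carboxylase 1 (LOC117854270) shifted by -0.53 ± 0.12 and the pyruvate carrier BASS2 (LOC117857047) by -0.90 ± 0.08, and neither overlapped the controls. The 2 phosphoribulokinase genes (LOC117834135 and LOC117862788), for the Calvin cycle enzyme that makes the carbon dioxide acceptor, fell by 0.68 ± 0.11 and 1.26 ± 0.12 on the log2 scale, and the first of them overlapped the controls. Sucrose-phosphate synthase (LOC117857684), the main control point of sucrose synthesis, stood at 545, 480.0, 567 and 576 CPM in controls and 244 to 315 CPM beside isolates, a shift of -0.99 ± 0.07 with no overlap. Soluble starch synthase 2-1 (LOC117838981, -1.05 ± 0.08) and isoamylase 3 (LOC117844752, -0.62 ± 0.06) were lower too. In the starch and sucrose list, 29 of 80 genes were lower (36.25%) and 16 higher (20%), beside 27.9% and 25% of all genes tested. Over the C4, Calvin cycle and photorespiration list as a whole, 18 of 54 genes were higher and 20 lower, and the list's median changed sign with total counts as the scaling, from -0.04 to 0.04.

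Among enzymes of 4 kinds, genes named for the same activity moved uniformly in opposite directions. Catalase isozyme 3 (LOC117841557) went from 1019.6, 1202, 1070.5 and 991 CPM in controls to 1852 to 3124 CPM, while catalase isozyme C (LOC117840633) went from 180.5, 173, 182 and 185 CPM to 74.1 to 102 CPM; both enzymes break down hydrogen peroxide. Their shifts were 1.20 ± 0.13 and -1.03 ± 0.07, and neither gene's isolate libraries overlapped the controls. PEP carboxylase 2 (LOC117843888) rose by 0.70 ± 0.07 against the decrease of PEP carboxylase 1 given above. Among the peroxisomal glycolate oxidases of photorespiration, GLO1 (LOC117838684) and GLO5 (LOC117843867) fell by 0.62 ± 0.05 and 0.86 ± 0.07, and GLO3 (LOC117862579) rose by 0.97 ± 0.17. Alpha carbonic anhydrase 7 (LOC117861149) rose from 2.7, 5.22, 4.05 and 2.64 CPM to 17.9 to 52.7 CPM, a shift of 3.13 ± 0.30, while a chloroplastic carbonic anhydrase (LOC117855863) shifted by -1.32 ± 0.21. Chloroplast ascorbate peroxidase 8 (LOC117859935), another peroxide scavenger, was lower as well (-1.02 ± 0.08). These pairs were picked out after their values were seen.

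**Figure D3:**
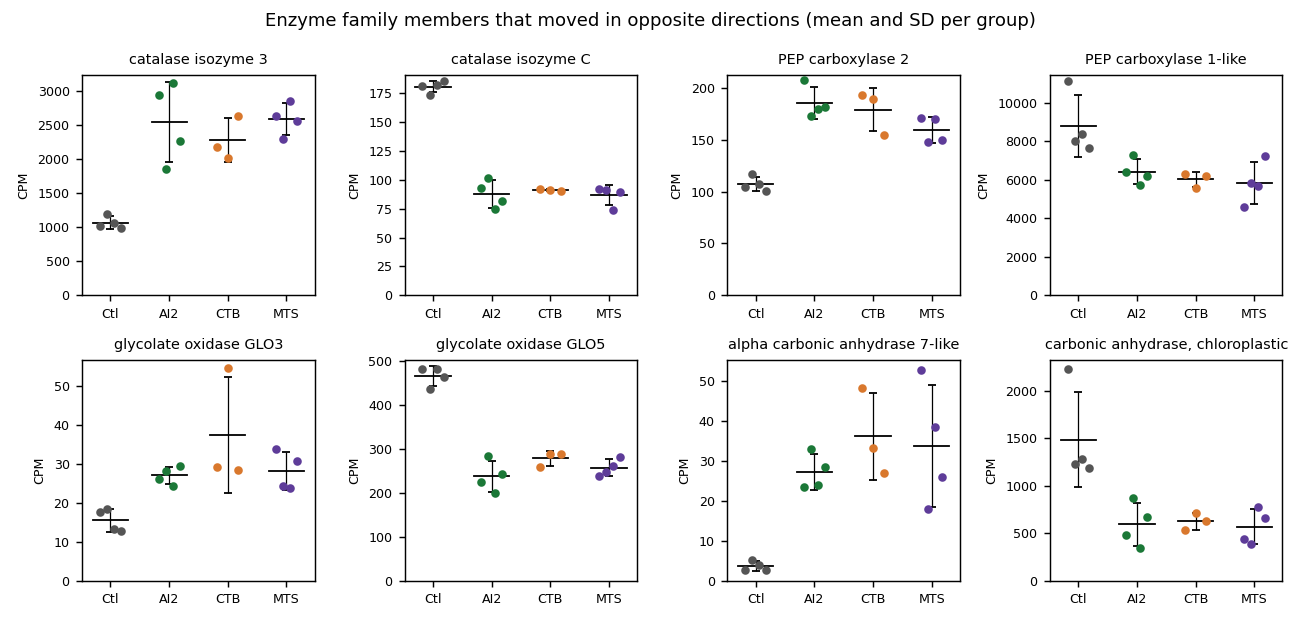
CPM of each library (points), with group mean (line) and SD (bar), for 4 pairs of enzymes named for the same activity. Groups are controls (Ctl) and the isolates (AI2, CTB and MTS, the starts of their names), and each vertical axis starts at 0. Catalase isozyme 3, PEP carboxylase 2, GLO3 and alpha carbonic anhydrase 7 lie above the controls in all 11 isolate libraries, and their partners lie below.

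Light signalling genes were mostly lower. Of 30 photoreceptor and light signalling genes, 18 were lower and 1 higher, with median differences of -0.36, -0.37 and -0.37 for CTB P6B8, MTS P5D6 and AI2.2-A. The uniform members included SPA1-RELATED 4 (LOC117857052, -1.03 ± 0.10) and the ubiquitin ligase COP1 (LOC117839617, -0.63 ± 0.06), which in Arabidopsis work together to degrade light-signalling factors, and cryptochrome 1 (LOC117864090, -0.46 ± 0.05), a blue-light receptor. For SPA1-RELATED 4 the controls had 132, 115, 91 and 99.8 CPM and the isolate libraries 45.5 to 66.6 CPM. CONSTANS-like genes, known as day-length regulators, were lower in 11 of 13 cases, 4 of them uniform. A RICE FLOWERING LOCUS T 1-like gene (LOC117851868), of the family that encodes the mobile flowering signal, was close to silent in controls at 0.0675, 0.0544, 0.153 and 0.207 CPM and reached 0.403 to 2.25 CPM beside isolates. Another family member, FLOWERING LOCUS T-like (LOC117844211), was lower (-2.85 ± 0.44) and undecided on agreement.

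Many genes for secreted defence proteins were higher. Of 113 chitinase, glucanase and pathogenesis-related (PR) genes, 61 were called higher and 10 lower, and 22 and 2 were uniform, with a median shift of 0.56. Chitinase 2 (LOC117833954), which cleaves the chitin of fungal walls, had 21.5, 22.9, 28.4 and 24.7 CPM in controls and 84.8 to 157 CPM (median 141) beside isolates, a 5.53-fold increase (adjusted p 1.75e-09). Endochitinase A (LOC117863036) rose by 2.80 ± 0.24, and all 3 barwin or PR-4 genes were uniform (LOC117833650 by 2.25 ± 0.21). A thaumatin-like gene (LOC117847685) had 0.202, 0.598, 0.916 and 1.24 CPM in controls and 4.44 to 28.1 CPM beside isolates, and the gene described as PRMS (LOC117855451) rose by 2.13 ± 0.22.

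Most WRKY transcription factors rose. Of 72 tested, 45 were higher and 7 lower, and 20 were uniform and higher against 1 uniform and lower, WRKY46 (LOC117833671, -0.66 ± 0.10). WRKY24-like (LOC117847284) had 2.9, 3.91, 2.9 and 3.98 CPM in controls and 10.9 to 20.3 CPM beside isolates, and its isolate differences of 2.05, 2.08 and 2.01 lay close together. WRKY28-like (LOC117851721, 2.81 ± 0.24) and WRKY51 (LOC117849840, 1.49 ± 0.12) rose as well.

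The 2 classes of immune receptor had opposite balances of higher and lower calls. Receptor-like kinases, which sit at the cell surface, were higher in 234 and lower in 88 of 517 cases, with 87 and 11 uniform and a median of 0.29. NLR genes were higher in 53 and lower in 105 of 259, with 10 and 27 uniform and a median of -0.21. Uniform genes made up 19% of the receptor-like kinases and 14.3% of the NLR genes, beside 11.1% of all genes tested. The difference between the 2 classes was not tested, and both hold many near-identical copies between which reads may be split. Cysteine-rich receptor-like kinase 6 (LOC117855575) had 11.5, 15.5, 14.8 and 12 CPM in controls and 39.1 to 53.4 CPM beside isolates (1.76 ± 0.10). An FLS2 gene (LOC117865667), whose Arabidopsis namesake binds bacterial flagellin, rose by 1.75 ± 0.13, and a G-type lectin kinase (LOC117850347) by 1.81 ± 0.11. Among NLR genes, 2 described as RGA4 fell (LOC117863771, -0.99 ± 0.08, and LOC117833540, -0.93 ± 0.09), and a Pik-2-like gene (LOC117851365) rose by 1.70 ± 0.18.

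Jasmonate and defence metabolite genes were called higher more often than lower. In the jasmonate list, 22 of 44 genes were higher and 6 lower, and 7 were uniform, all of them higher. These included genes placed, by their descriptions alone, at consecutive steps of the path. They were lipoxygenase 8 (LOC117860436, 2.72 ± 0.34) and both allene oxide synthases (LOC117836966, 1.33 ± 0.19, and LOC117839469, 1.10 ± 0.15). The allene oxide cyclase (LOC117840603, 1.09 ± 0.10) and 12-oxophytodienoate reductase 5 (LOC117847303, 1.58 ± 0.14) were the others. Only the second allene oxide synthase overlapped the controls among these 5 genes. Phenylalanine ammonia-lyase (LOC117865862), the entry to phenylpropanoids, went from 8.77, 12.1, 9.77 and 8.94 CPM to 24.4 to 45.4 CPM. Terpenoid and benzoxazinoid genes were higher in 15 and lower in 4 of 26 cases, and 9 were uniform and higher.

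In that list, ent-copalyl diphosphate synthase 2 (LOC117841994) rose by 2.46 ± 0.38 and its paralog AN1 (LOC117840955), named after a maize gene of gibberellin synthesis, fell by 1.18 ± 0.15. An indole-2-monooxygenase-like gene (LOC117861752) had 0.0675, 0.0544, 0.153 and 0.0517 CPM in controls, from 5 counts in all, and 1.44 to 14.6 CPM beside isolates.

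Genes of the proteasome and of protein folding were mostly higher where they changed, and those of autophagy were mostly lower. Of 57 genes of the 26S proteasome, 25 were higher and 4 lower, 11 of the former uniform, and the isolates differed in 13 (22.8%). Regulatory subunit 13 (LOC117864917) rose by 1.23 ± 0.13, and subunits alpha 7-A (LOC117860240, 0.51 ± 0.07) and beta 4 (LOC117844710, 0.31 ± 0.05) rose less. In the endoplasmic reticulum, where secreted proteins fold, 30 of 57 genes were higher and 6 lower, and 2 calreticulin-3 genes (LOC117849969, 1.04 ± 0.14, and LOC117855907, 0.92 ± 0.10) and luminal-binding protein 3 (LOC117841548, 0.85 ± 0.09) were uniform. Heat shock proteins and chaperones were called higher in 49 of 69 cases, and only 4 were uniform, while the isolates differed in 42 (60.9%). A mitochondrial 26.2 kDa heat shock protein (LOC117853089) was among those 4, with isolate differences of 2.02, 2.06 and 1.98. Of 31 genes of autophagy, which delivers cell material to the vacuole, 13 were lower and 2 higher, with a median of -0.12 and differences between isolates in 23 (74.2%). Its uniform members were the kinases ATG1c-like (LOC117837226, -0.62 ± 0.06) and ATG1a-like (LOC117839796, 0.48 ± 0.06), which moved in opposite directions, and autophagy-related protein 2 (LOC117854183, -0.65 ± 0.13). Of 2 ubiquitin-like genes (LOC117843441 and LOC117842128), which may share reads with other copies, the controls stood at 1.55, 2.39, 2.67 and 2.22 CPM and 2.5, 6.52, 4.73 and 3.98 CPM and the isolate libraries at 8.52 to 181 CPM and 22.6 to 215 CPM.

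Phosphate signalling and lipid genes showed both directions. Among 6 SPX genes, sensors of phosphate status, 5 were higher and 3 uniform: SPX5 (LOC117836290, 2.70 ± 0.28), SPX6 (LOC117855647, 2.63 ± 0.39) and SPX1 (LOC117840766, 1.00 ± 0.25), of which the last overlapped the controls. The phosphate transporter 1-8 (LOC117840071) went from 19.8, 24.4, 20.8 and 19.4 CPM to 38.7 to 73.9 CPM. Purple acid phosphatase 15 (LOC117839637, 1.82 ± 0.15) and the sulfolipid synthase SQD2 (LOC117856867, 1.60 ± 0.18) rose. Of 8 galactolipid synthase genes, whose products are the main lipids of chloroplast membranes, 6 were lower, 3 of them uniform (LOC117833394, -0.49 ± 0.06, LOC117838290, -0.42 ± 0.07, and LOC117841430, -0.35 ± 0.07). The exception, monogalactosyldiacylglycerol synthase 2 (LOC117860076), rose by 4.62 ± 0.29 and differed between isolates. Over the whole list, 27 of 67 genes were higher and 21 lower, with 9 and 7 uniform.

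More auxin genes were lower than higher. Of 109 genes, 64 were lower and 13 higher, with 20 and 2 of them uniform and a median of -0.33. Of 18 genes described as SAUR36-like, early auxin response genes, 15 were lower and 11 uniform, with shifts of -1.89 to -0.82 among the latter. These are close copies, and reads may be split between them. For one of them (LOC117861649) the controls had 8.91, 8.75, 8.93 and 11.3 CPM and the isolate libraries 4.02 to 6.1 CPM. In the ethylene and ERF list, 43 of 113 genes were higher and 19 lower, with 12 and 2 uniform. The uniform share, 12.4%, was near the 11.1% of all genes tested. The signalling genes ETHYLENE-INSENSITIVE 2 (LOC117842565, -0.72 ± 0.07) and 3-like 1a (LOC117837345, -0.35 ± 0.07) were lower, while an ACC oxidase (LOC117851022), which forms ethylene, rose by 1.19 ± 0.13.

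Some other abundant or large uniform changes belonged to none of these groups. Actin-7 (LOC117864194), a cytoskeletal gene often taken as a reference in plant expression work, had 1095, 1075, 1061 and 1048 CPM in controls and 452 to 595 CPM beside isolates, a shift of -1.09 ± 0.07. Protein TSS (LOC117841118) fell by 1.31 ± 0.06, the chloroplast translation factor EF-G-2 (LOC117863885) by 1.21 ± 0.09, and the CBL-interacting kinase 1 (LOC117858554) by 1.10 ± 0.06. Of 376 pentatricopeptide repeat genes, most of which process organelle RNA, 137 were lower and 24 higher, with 22 and 3 uniform. The uniform share, 6.65%, was below the 11.1% of all genes tested. The uniform one described as At5g25630-like (LOC117852730) fell by 1.36 ± 0.08. Inorganic pyrophosphatase 1 (LOC117856988) went from 5.26, 6.09, 9.54 and 7.44 CPM to 35.3 to 70.3 CPM and a non-specific lipid-transfer protein (LOC117847314) from 1.08, 0.924, 0.687 and 0.672 CPM to 4.02 to 11 CPM. A potassium transporter 21-like gene (LOC117836930) rose by 3.61 ± 0.62 and the gene described as a benzoate-CoA ligase (LOC117836309) by 2.49 ± 0.18.

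**Figure D4:**
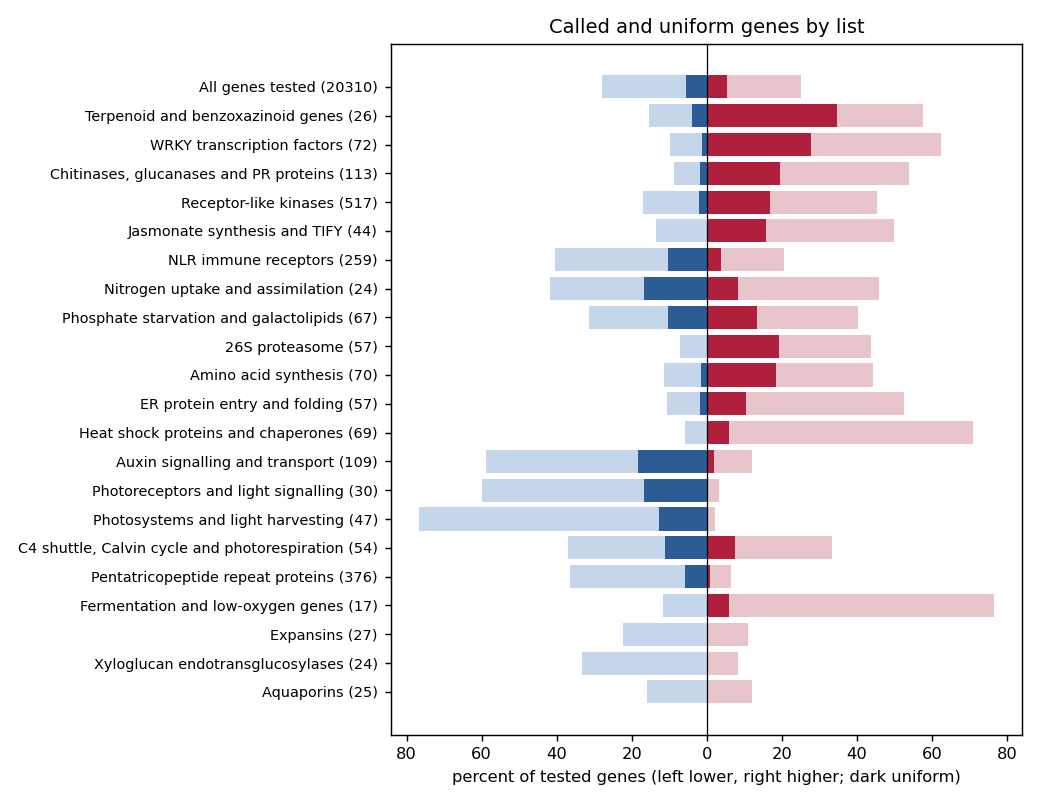
Percent of each list's tested genes (number in brackets) that were called (pale) and uniform (dark), lower to the left and higher to the right; the top bar gives all 20310 genes tested. Terpenoid, WRKY, PR and receptor-like kinase genes lean right, photosystem, light signalling and auxin genes lean left, and expansins, xyloglucan endotransglucosylases and aquaporins hold no dark bar.

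Other groups were set beside the shares over all genes tested, of which 11.1% were uniform and 47.1% differed between isolates. None of 27 expansins, 24 xyloglucan endotransglucosylases (both loosen cell walls) or 25 aquaporins (water channels) was uniform, and the isolates differed in 88.9%, 70.8% and 80% of them. Of 167 cyclin, kinesin and DNA replication genes tested, 23 were called with directions that were not the same beside all isolates, against 864 of all 20310 genes tested. Low-oxygen and fermentation genes were called higher in 13 of 17 cases, with medians of 0.55, 1.46 and 1.83 for CTB P6B8, MTS P5D6 and AI2.2-A, and the isolates differed in 11 (64.7%). The 1 uniform gene in that list was L-lactate dehydrogenase A (LOC117849186), which makes lactate from pyruvate, with 0.0675, 0.109, 0 and 0.103 CPM in controls, from 5 counts, and 0.761 to 1.75 CPM beside isolates (4.03 ± 0.44). Of 12 alcohol dehydrogenase and pyruvate decarboxylase genes counted by name, not all of them in the list, 9 were higher and 1 lower, and the 1 uniform gene was alcohol dehydrogenase-like 7 (LOC117838038, 2.15 ± 0.36).

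For comparison, 6 of the largest one-directional shifts were ones on which the isolates differed. The HKT8-like cation transporter (LOC117858061) fell by 3.45, 5.50 and 1.88 beside CTB P6B8, MTS P5D6 and AI2.2-A (adjusted agreement p 7.41e-05). A DETOXIFICATION 16-like transporter (LOC117865053) rose by 5.20, 6.74 and 5.05 (adjusted agreement p 0.0191), and laccase-12 (LOC117847269) fell by 2.92, 3.04 and 2.37 (adjusted agreement p 0.0207). A glutaredoxin-C10-like gene (LOC117833974, adjusted agreement p 0.00509) and a FadD32-like ligase (LOC117849945, 0.0206) were higher beside all isolates, and a heat stress factor C-2a-like gene (LOC117842933, 0.0431) was lower. Of these 6 genes, only the HKT8-like gene had a widest bound larger than its shift (4.84, for a shift of -3.61). The others met the bound and missed the uniform rule by the agreement test, as laccase-12 did with 1.10 for a shift of -2.78.

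**Figure D5:**
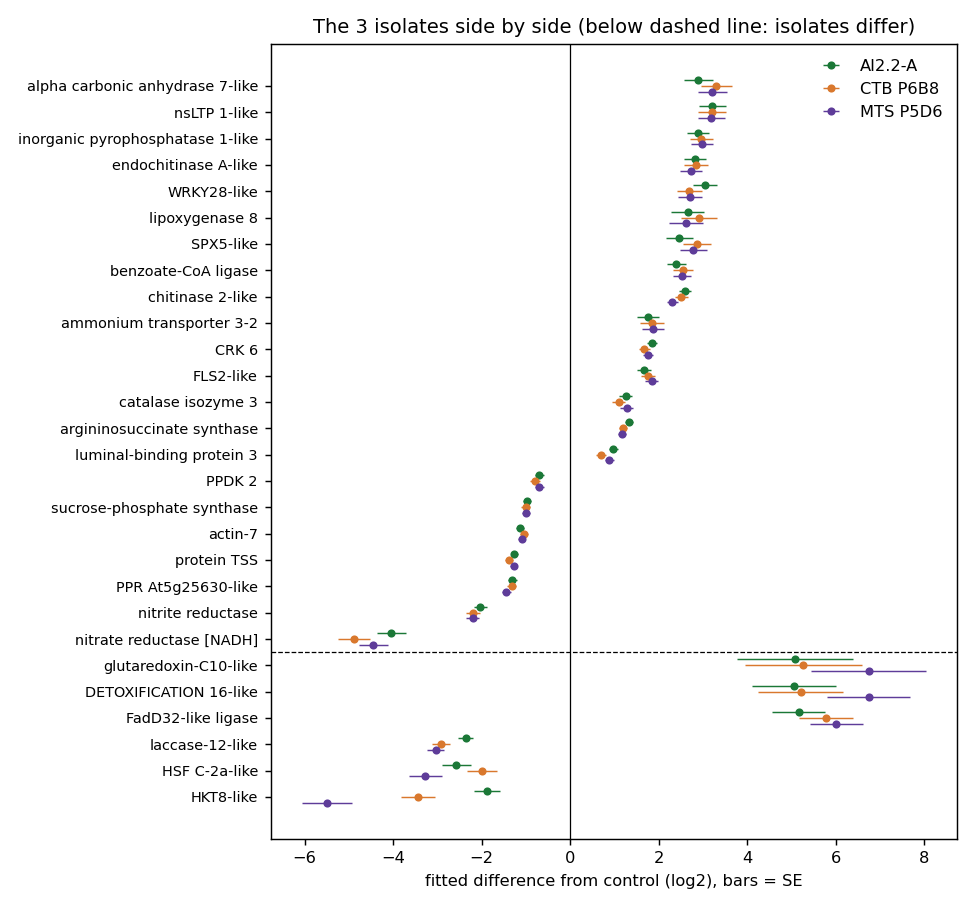
Fitted difference from control (log2, points) with its standard error (bars) for each isolate, for 22 uniform genes and, under the dashed line, 6 genes on which the isolates differed. By the rule for uniform genes, their 3 points lie close together relative to the shift, as for argininosuccinate synthase at 1.19, 1.17 and 1.33. Those of the HKT8-like gene lie apart at -3.45, -5.50 and -1.88. Other genes under the line can lie as close together as uniform ones. The widest bound was 1.10 for laccase-12 (shift -2.78) and 1.60 for the uniform nitrate reductase [NADH] gene (shift -4.46).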

How the data were processed

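Transcripts of 15 shoot libraries were measured by RNA-seq. The authors deposited 1 table of raw read counts per gene, whose values are whole numbers, made from stranded total RNA libraries per the labels. The submitters' processing notes name, without saying what each was used for, FastQC, Trimmomatic 036, HISAT2, featureCounts and DESeq2 1.6.3. The genome build, and how strand and reads shared by similar genes were handled, were not given in the sources at hand. CPM used TMM-scaled library sizes. Of the authors' own tables of pairwise comparisons, only the gene descriptions were used here, and none of their test values. All 15 columns were used and 0 were left out; column names matched sample labels. Descriptions, and with them the gene lists and families, came from an authors' comparison table that covered 23214 genes. A RefSeq gene table, in which 26304 of 28032 identifiers were found, was used to mark chloroplast-encoded genes.

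Counts were scaled by TMM and filtered with filterByExpr in edgeR 4.0.16 (R 4.3.3), which kept 20310 genes. edgeR's quasi-likelihood test was fitted over all 15 libraries and 4 groups, with the equally weighted mean of the 3 isolates against control and a test with 2 degrees of freedom among the isolates, and p-values were adjusted over all tested genes. Log2 differences are computed here from the deposited counts. Total counts per library set the precision, and counting intervals cover counting error only. No 2 libraries of a group agreed within sampling noise (chi-square per degree of freedom of at least 2.69). The procedure was tested on simulated data made from these libraries. Of genes given a uniform shift of 0.5 (log2), 56.7% were called and 40.3% were uniform, and of those given a shift of 1, 97% and 91%. In the simulation 400 of 20310 genes were changed, none of them from the genes with fewest counts, whereas 10735 were called in the data. Its counts were drawn without the gene-wise quasi-likelihood variance of the fit. The rule thus missed many smaller shifts in the simulation, and these shares may not carry over to the data.

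The members, the 62 gene lists and the families were chosen with earlier results of these data known, and exclusions from 8 lists were amended by gene name once the identifiers were seen. Named genes are, per direction, the 8 largest, 4 most abundant and 4 narrowest uniform shifts, up to 3 uniform members per list, and 6 genes with one direction on which isolates differed. Narrowest shifts were taken among those of at least 2-fold, and list members by the smallest p of the common shift. All of these genes had a mean log2 CPM of at least 1, an informative description and no overlap between isolate libraries and controls. Beyond these, 34 named genes were chosen after their values were seen: ammonium transporters 2;1 and 2;3, glutamate synthase 1, nitrate reductase [NAD(P)H], GLO3, the chloroplastic carbonic anhydrase, both phosphoribulokinases, SPX1, SPX5, SPX6, SQD2, the 4 named galactolipid synthases, both argininosuccinate lyases, the 2 anthranilate synthase subunits, both indole-3-glycerol phosphate synthases, arogenate dehydratase 6, both allene oxide synthases, the thaumatin-like gene, PRMS, WRKY46, lactate dehydrogenase A, alcohol dehydrogenase-like 7, potassium transporter 21, both FLOWERING LOCUS T relatives and ETHYLENE-INSENSITIVE 3-like 1a. Alternatives tried were other scalings, filters, thresholds, DESeq2 1.42.0, limma 3.58.1 with voom, replicate blocks, and leaving out each library or isolate. The labels do not say whether the replicates came from separate plates or pools. Replicate numbers did not pair the libraries.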

Additional observations from a re-analysis of the deposited data

Results flagged for a closer look

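Control replicate 1 stood apart from the other controls in 8 of the named genes. It was high for the PELPK1-like gene LOC117836899 (37.1 CPM), BASS2 LOC117857047 (3566 CPM), ferredoxin-NADP reductase LOC117849888 (482 CPM), nitrate reductase [NAD(P)H] LOC117839581 (7.29 CPM), the carbonic anhydrase LOC117855863 (2232 CPM) and phosphoribulokinase LOC117834135 (876 CPM), and low for ent-copalyl diphosphate synthase 2 LOC117841994 (6.14 CPM) and anthranilate synthase alpha subunit 2 LOC117837918 (31.7 CPM). Another control was high for the indole-2-monooxygenase-like gene LOC117861752 (replicate 3, 0.153 CPM), SWEET14-like LOC117866587 (replicate 2, 17.6 CPM) and SAUR36-like LOC117861649 (replicate 4, 11.3 CPM).

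Among isolate libraries, AI2.2-A replicate 4 was high for peroxidase 1-like LOC117858930 (963 CPM) and SPX1 LOC117840766 (139 CPM), AI2.2-A replicate 3 was low for WRKY46 LOC117833671 (7.81 CPM), and AI2.2-A replicate 2 for autophagy-related protein 2 LOC117854183 (148 CPM). MTS P5D6 replicate 2 was low for the FadD32-like gene LOC117849945 (5.44 CPM) and MTS P5D6 replicate 3 for catalase isozyme C LOC117840633 (74.1 CPM). These were 17 of 375 gene and group pairs looked at, and chance alone marks about 1 in 20 such groups. Only groups with 4 libraries entered, so CTB P6B8, with 3, was not looked at.

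The isolates differed from one another, by the adjusted p of edgeR's agreement test, for the glutaredoxin-C10-like LOC117833974 (0.00509), DETOXIFICATION 16-like LOC117865053 (0.0191), FadD32-like LOC117849945 (0.0206), HKT8-like LOC117858061 (7.41e-05), laccase-12-like LOC117847269 (0.0207), heat stress factor C-2a-like LOC117842933 (0.0431) and monogalactosyldiacylglycerol synthase 2 LOC117860076 (0.0447) genes. In all 7 genes the fitted direction was the same beside the 3 isolates, which was a condition for choosing all but the last of them.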

How the results depend on the processing

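No uniform gene changed direction under any scaling, filter, tool, block or left-out library tried. The same 2256 genes were again uniform for 90.7% with relative log expression scaling, 88% with DESeq2, 82.8% with limma-voom and 74% with total counts alone, which gave 1472 uniform higher and 715 uniform lower genes and 6336 higher against 4229 lower calls. At an adjusted p under 0.01 the agreement test called 5839 genes. Without AI2.2-A it called 5384, with 2401 uniform higher and 1723 lower genes, and without MTS P5D6 it called 2233, with 2624 and 2461. Without CTB P6B8 it called 9032, with 1648 and 1526, so the drop depended on which isolate was left out. With an isolate left out, the agreement test and the uniform rule cover fewer isolate differences. The uniform counts of these settings are therefore not like for like with the main ones. Bounds inside 0.5 of the shift left 250 higher and 164 lower genes, no bound gave 2077 and 2533, and a 99% interval left 731 lower. Leaving out 1 library at a time gave 9369 to 10857 called genes, 4378 to 5490 higher, 4805 to 5761 lower, 8059 to 9507 in the agreement test, and 878 to 1206 uniform higher and 849 to 1200 uniform lower genes. Without CTB P6B8 replicate 3, 53.3% of calls were higher.

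Replicate numbers in the titles did not pair libraries: the correlations of deviations over 21 pairs ran from -0.28 to 0.31 (median -0.03), and over 18 pairs by the numbers in the descriptions, from -0.28 to 0.31. With the replicate block by title number, 10261 genes were called, 8650 in the agreement test, and 1041 higher and 1149 lower were uniform; by description number the block gave 10181, 7046, 1120 and 1046. Of 3624 values for the 125 named genes, 3622 kept their direction and their call on the common shift. Most of these genes were chosen for a called shift without overlap, so a kept call was likely beforehand. Whether they stayed uniform was not part of this count. Glutamate synthase 1 (LOC117857834) had an adjusted p of 0.0121 and missed the 0.01 threshold, and the ervatamin-B-like gene (LOC117833743) had 0.0604 with limma-voom. Medians of 55 of the 62 lists moved with total counts, and of 10 with relative log expression, by more than the SD of the list's level across controls. Medians of 8 lists changed sign with total counts and of 2 with relative log expression, and the cause was not tested. The search of promoter motifs, and its alternative on the forward strand, was not run. Depth limits genes with few control counts.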
